A study of Mus musculus with 4 samples.

Results

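The MAP kinase cascade genes are 42 genes for the kinases that relay receptor signals through the ERK, JNK and p38 MAP kinases, with the adaptors and Ras proteins above them and the protein kinases they phosphorylate. They were followed in mouse bone marrow-derived mast cells by every probe set whose only gene symbol in the platform annotation was one of these genes. By this rule 35 of the 42 genes had 69 probe sets, of 12393 genes and 22626 probe sets in all, and 21 of the 35 had more than 1. Hras, Mapk3, Rps6ka1, Rps6ka2, Map2k7, Mapkapk3 and Rps6ka4 had no such probe set and were not analysed here.

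The study compared wild-type (Pac1+/+) with Pac1-/- mast cells, in which Dusp2, the gene for the nuclear MAP kinase phosphatase Pac1, is disrupted. Marrow of mice aged 8 to 12 weeks was cultured in interleukin-3 (5 ng/ml) for 4 to 6 weeks, and over 98% of them carried Kit and FceRI, the high-affinity IgE receptor. Both genotypes were sensitised for 18 h with 100 ng/ml IgE against dinitrophenyl and then exposed to its antigen, DNP-HSA at 20 ng/ml, for 2 h. Each genotype had 2 cultures, numbered replicates 1 and 2, and each culture had 1 Affymetrix 430A array. All 4 cultures were stimulated, so no value here is a response to antigen. The sources used here do not give which part of Dusp2 was removed, nor where its probe set lies. That probe set read a normalised 167 and 90.7 in wild-type and 109 and 75.5 in Pac1-/- replicates 1 and 2, so the genotypes overlapped and it is no check of the labels.

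In a MAP kinase cascade a MAP3K phosphorylates a MAP2K, which phosphorylates the MAP kinase on a threonine and a tyrosine of its activation loop. Dual-specificity phosphatases such as Pac1 remove both phosphates. In mast cells, crosslinking of FceRI activates Ras and the ERK arm through adaptors, and the JNK and p38 arms as well, and these control cytokine transcription and mRNA stability. The activity of these kinases is set by phosphorylation, which an expression array does not measure.

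Most mast cell markers were bright: of 13 listed, 12 had a probe set, and 10 of these read at least 100 on all 4 arrays, with Ms4a2 and Mcpt4 below 100 on some. Ms4a2 read a normalised 143 and 41.9 on replicate 1 of wild-type and Pac1-/- cells, against 3261 and 1502 on replicate 2. Tpsb2 read 476 on Pac1-/- replicate 2, against 5838 to 7259 on the other arrays. Of 45 measured markers of other cell types, 36 stayed below 100 on every array and 2, Adgre1 and Itga2b, were at least 100 on all. Their summed normalised intensity was 13142 on wild-type replicate 1 and 9815 on Pac1-/- replicate 1, against 5472 and 2433 on replicate 2 of each genotype. On 3 of the arrays, Pac1-/- replicate 2 being the exception, most of this came from Cd68, Itga2b, Acta2 and Pecam1. Cd68 read 7512 and 5638 on replicate 1 of wild-type and Pac1-/- cells, against 118 and 121 on replicate 2. Acta2 read 1652 and 746 against 23.6 and 59.7. Itga2b and Pecam1 were lower on replicate 2 in Pac1-/- cells only. In wild-type cells they were higher there, at 3170 and 706 against 2037 and 601. The Pac1-/- replicate 2 array stood apart by its 5' GAPDH control probe set, which read 17.7, against 4293 to 4726 on the other arrays. Its median deposited intensity was 24.5, against 40.6 to 49.3. By the 5' beta-actin control it did not stand apart. That control read 44.3 there, 38.1 on wild-type replicate 1 and 14.5 on Pac1-/- replicate 1, and wild-type replicate 2 differed from these, at 2768. The 3' over 5' ratio of the beta-actin controls was 54.8, 109 and 293 on these 3 arrays, against 1.58 on wild-type replicate 2. For GAPDH this ratio was 191 on Pac1-/- replicate 2, against 0.80 to 1.36 on the other arrays. The part of these differences in the results was not tested.

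A gene was counted as bright where 1 of its probe sets was at 100 or above on each of the 4 arrays in the deposited intensities, 100 being the minimum that the series' design text names. Of the 35 measured genes 15 (42.9%) were bright, against a background of 27.2% of the 12393 genes. Genes with more probe sets have more chances to count as bright. The 35 genes had 69 probe sets, and the 12393 genes had 20380. By the mean over the probe sets of a gene, 11 of the 35 were bright, with no background computed for that setting. Another 8 reached 100 on 1 to 3 arrays, and 12 stayed below 100 on every array, with no value above 91.6. A dim probe set does not show that a gene is silent. Intensities below are quantile normalised unless called deposited, and each gene is followed by the probe set with the highest mean deposited intensity unless another is named. In such bulk RNA, fewer cells that express a gene and less RNA per cell cannot be told apart.

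**Figure D1:**
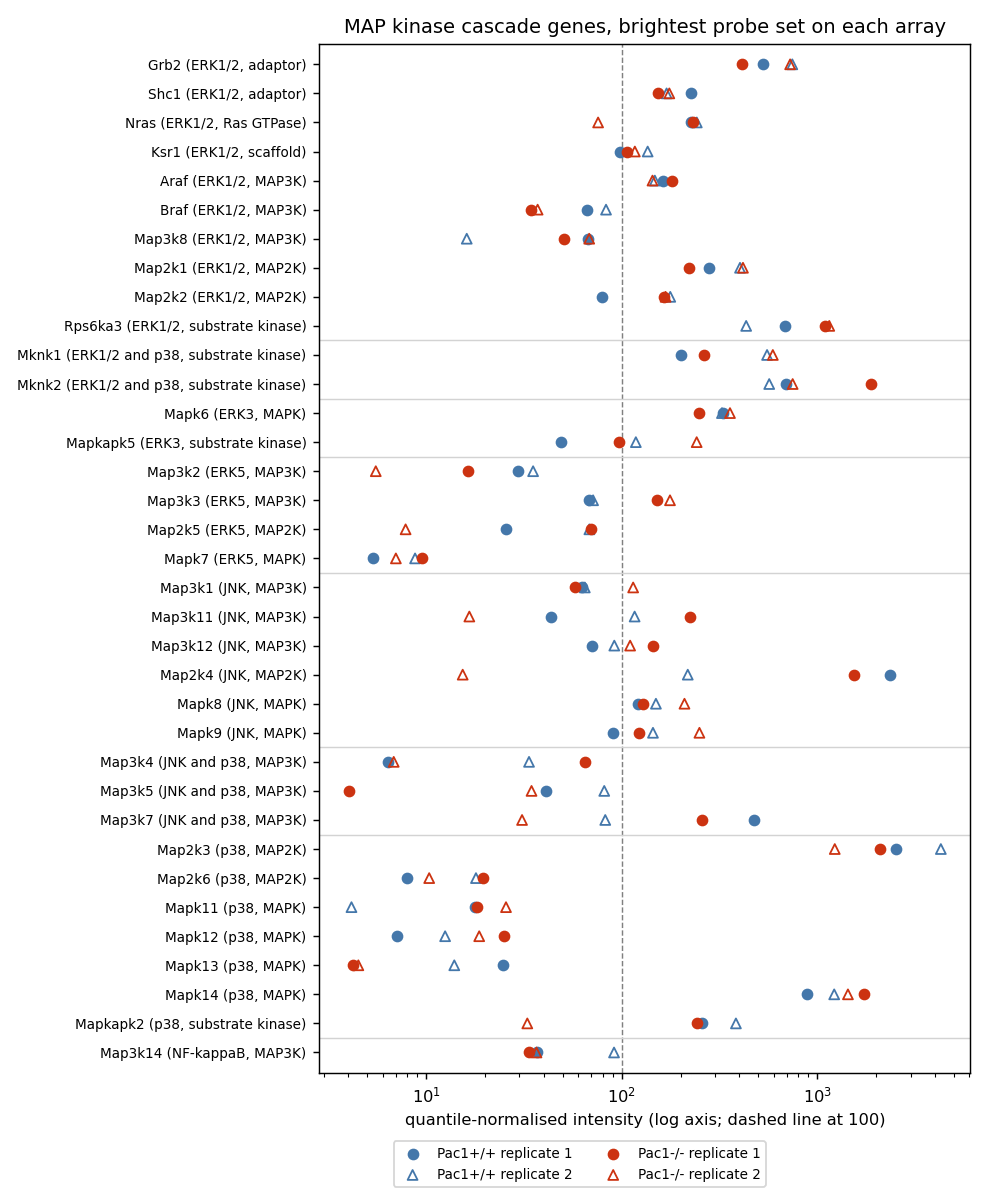
Quantile-normalised intensity (log axis) of the brightest probe set of each of the 35 measured genes on the 4 arrays, ordered by arm and tier. Filled circles are replicate 1 and open triangles replicate 2, in blue for Pac1+/+ and red for Pac1-/-. The dashed line is at 100. The p38 gene Mapk14 lies right of the line on all arrays, while Mapk11, Mapk12 and Mapk13 lie left of it. For Nras, Map2k4 and Map3k7 another probe set, not drawn here, was the one at 100 or more on every array, and Mapk9 reached 100 on all 4 arrays in the deposited values only.

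In the ERK1/2 arm, 6 of 10 measured genes were bright: the adaptor genes Grb2 and Shc1, the Ras gene Nras, the MAP3K gene Araf, the MAP2K gene Map2k1 and the substrate kinase gene Rps6ka3. The adaptor, Ras, MAP3K, MAP2K and substrate kinase tiers each had a bright gene, the scaffold tier had none, and Mapk3, the MAP kinase on the list, had no probe set here. Among the MAP3K genes, Braf had deposited intensities between 22.3 and 91.6 and Map3k8 (Tpl2) between 19.8 and 77.9, both below 100 on every array. The scaffold gene Ksr1 missed 100 only on Pac1-/- replicate 2, at a deposited 89.9, with 107.9 to 144.4 on the other arrays. Map2k2, the second MEK gene, missed it only on wild-type replicate 1, at 89.8. In the normalised values Ksr1 read 117 on Pac1-/- replicate 2 and missed 100 only on wild-type replicate 1, at 97.6.

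Grb2, which encodes the adaptor that carries the Ras activator Sos to phosphorylated receptors, read 530 and 745 in wild-type replicates 1 and 2 and 411 and 727 in Pac1-/- replicates 1 and 2. The replicate 2 arrays were the higher ones in both genotypes, and the genotypes overlapped. Its log2 difference, Pac1-/- minus Pac1+/+, was -0.20 ± 0.49 (SE, n = 2 per genotype). Shc1, whose product links receptors to Grb2, read 226 and 170 in wild-type and 154 and 175 in Pac1-/- cells (-0.25 ± 0.38), again with overlap.

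Nras had 3 tested probe sets that did not run together. The brightest, 1422687_at, read 225 and 242 in wild-type cells and 230 and 75.7 in Pac1-/- cells. Only Pac1-/- replicate 2 was low, and the log2 difference was -0.82 ± 0.68 (SE, n = 2 per genotype). The set 1422688_a_at read 221, 185, 119 and 229 in the same order, with Pac1-/- replicate 1 as the low array. The set 1454060_a_at read 141 and 120, then 162 and 211, so that its genotypes did not overlap and its sign was opposite, at 0.50 ± 0.38.

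Among the bright MAP3K and MAP2K genes of the ERK1/2 arm, Araf and Map2k1 overlapped between the genotypes. Araf, a RAF kinase gene, read 163 and 148 in wild-type and 182 and 144 in Pac1-/- cells, and its log2 difference was 0.06 ± 0.37 (SE, n = 2 per genotype; 95% interval -0.99 to 1.11). Map2k1, which encodes the ERK activator MEK1, read 279 and 403 in wild-type and 221 and 417 in Pac1-/- cells (-0.14 ± 0.52; 95% interval -1.63 to 1.34). In both genes the arrays of a genotype enclosed or overlapped those of the other, and the intervals still allow a change of 2-fold in at least 1 direction. Map2k2 read 79.2 and 177 in wild-type and 165 and 168 in Pac1-/- cells (0.49 ± 0.55), and Ksr1 97.6 and 136 against 106 and 117 (-0.05 ± 0.39). Braf, too dim for the test, read 66.5 and 83.1 in wild-type and 34.2 and 37.1 in Pac1-/- cells, without overlap.

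Rps6ka3 encodes RSK2, a kinase that ERK activates and that phosphorylates transcription factors. Its probe set 1455206_at read 685 and 433 in wild-type replicates 1 and 2 and 1098 and 1152 in Pac1-/- replicates 1 and 2. Both Pac1-/- arrays were above both wild-type arrays, by 0.68 log2 units in the replicate 1 pair and 1.41 in the replicate 2 pair. The log2 difference was 1.05 ± 0.42 (SE, n = 2 per genotype; 95% interval -0.16 to 2.25), with a limma adjusted p of 0.866. The other bright set, 1427299_at, read 720 and 637 against 772 and 1036, without overlap and with a smaller difference of 0.40 ± 0.38. The remaining set, 1452383_at, was dim, between 14.4 and 53.1.

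The ERK5 arm, in which Map3k2 and Map3k3 encode MAP3Ks, Map2k5 the MAP2K and Mapk7 the large MAP kinase ERK5, had 0 bright genes of 4. Map3k2 and Map3k3 were counted in this arm only, which does not mean that they act in it alone. Mapk7 had deposited intensities of 3.6 to 11.2, Map3k2 of 2.8 to 42 and Map2k5 of at most 76.4 over 3 probe sets. Map3k3 alone came above 100, and only through 1436522_at in Pac1-/- cells and, on 1 array, through 1426686_s_at.

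Map3k3 (MEKK3) at 1436522_at read 67.7 and 71.4 in wild-type replicates 1 and 2 and 151 and 177 in Pac1-/- replicates 1 and 2. The Pac1-/- arrays were the higher ones in both pairs, with little spread within a genotype. The log2 difference was 1.23 ± 0.35 (SE, n = 2 per genotype; limma unadjusted p = 0.0282, adjusted p = 0.866), and it lay between 0.99 on the values as deposited and 1.34 without Pac1-/- replicate 1. This set reached the mean of 100 needed for the test only through the Pac1-/- arrays, so it entered the test because of the values compared. The other probe sets of Map3k3 did not show the difference. The set 1426687_at read 69 and 59.6 in wild-type and 66.8 and 50.7 in Pac1-/- cells. The set 1426686_s_at read 90.9 and 64 in wild-type and 81.6 and 10 in Pac1-/- cells, so that the lowest array was Pac1-/- replicate 2. Both were too dim for the test.

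Mapk6 encodes ERK3, an atypical MAP kinase without the usual activation loop motif, and Mapkapk5 encodes MK5, which binds ERK3. Mapk6 was bright, at 330 and 325 in wild-type and 248 and 358 in Pac1-/- cells, and its genotypes overlapped (-0.14 ± 0.39, SE, n = 2 per genotype). Its second set, 1419168_at, too dim to test, had 85.5 and 38.7 in wild-type cells and stood at 5.5 and 5.1 in Pac1-/- cells, below the floor of 16 that was set before log2 was taken. Mapkapk5 read 49.2 and 118 in wild-type and 96.3 and 242 in Pac1-/- cells. It was higher on both replicate 2 arrays than on the replicate 1 arrays, and higher in Pac1-/- cells within each pair, by 0.97 and 1.03, with a fitted difference of 1.00 ± 0.75.

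In the JNK arm, both measured JNK genes, Mapk8 (JNK1) and Mapk9 (JNK2), were bright, and so was Map2k4 (MKK4), which phosphorylates JNK and can phosphorylate p38. The MAP3K genes Map3k1 (MEKK1), Map3k11 (MLK3) and Map3k12 (DLK) were not: Map3k1 had deposited intensities of 60.4 to 87.4, and the other 2 reached 100 on 2 arrays each.

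Mapk8 read 121 and 150 in wild-type and 129 and 209 in Pac1-/- cells, through 1420932_at. Mapk9 read 90.5 and 144 in wild-type and 122 and 250 in Pac1-/- cells, through 1421877_at. In both genes replicate 2 was the higher array of each genotype, the Pac1-/- array was the higher one of each pair, and the genotypes overlapped. The log2 differences were 0.29 ± 0.44 for Mapk8 and 0.61 ± 0.57 for Mapk9 (SE, n = 2 per genotype). The other 4 probe sets of these genes were too dim to test, and 1420931_at of Mapk8 read 133 on wild-type replicate 1 against 27.1 to 44.05 elsewhere.

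Map2k4 had 2 probe sets with opposite patterns. The set 1426233_at read 2368 on wild-type replicate 1, 1537 on Pac1-/- replicate 1, 218 on wild-type replicate 2 and 15.4 on Pac1-/- replicate 2. It therefore followed the replicate number, and the log2 difference between the genotypes was -2.19 ± 2.75 (SE, n = 2 per genotype; 95% interval -10.08 to 5.69). The value on Pac1-/- replicate 2 was under the floor of 16, and with a floor of 64 the difference was -1.19. Without Pac1-/- replicate 2 it turned to 1.04. The set 1451982_at, bright on all arrays, read 243 and 299 in wild-type and 372 and 652 in Pac1-/- cells. Here the Pac1-/- arrays were above both wild-type arrays, with a difference of 0.87 ± 0.47 and a limma adjusted p of 0.866.

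Map3k12, which encodes an activator of the JNK arm, read 70.6 and 91.6 in wild-type and 145 and 110 in Pac1-/- cells. Its genotypes did not overlap, and the log2 difference was 0.65 ± 0.39 (SE, n = 2 per genotype). Map3k11 read 43.7 and 116 in wild-type cells and 222 and 16.6 in Pac1-/- cells, with a mean just under the minimum for the test. The Pac1-/- array was the higher one in the replicate 1 pair and the lower one in the replicate 2 pair.

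Of the MAP3K genes that serve both JNK and p38, Map3k7 was bright, and Map3k4 (MEKK4) and Map3k5 (ASK1) stayed below 100 on every array, with highest deposited intensities of 69.1 and 89.7. Map3k7 encodes TAK1, which relays Toll-like and cytokine receptor signals to both arms and to NF-kappaB. Its brightest set, 1426627_at, read 474 and 82.4 in wild-type replicates 1 and 2 and 256 and 30.9 in Pac1-/- replicates 1 and 2, and again followed the replicate number (-1.15 ± 1.49, SE, n = 2 per genotype; 0.12 when wild-type replicate 1 and 0.35 when Pac1-/- replicate 2 was left out, and -0.63 with a floor of 64). The set 1455441_at was level on the 4 arrays, at 140, 167, 147 and 170 in the same order, with a difference of 0.05 ± 0.36. Map3k14 (NIK), a kinase of the NF-kappaB pathway, had deposited intensities of 22 to 100.2.

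**Figure D2:**
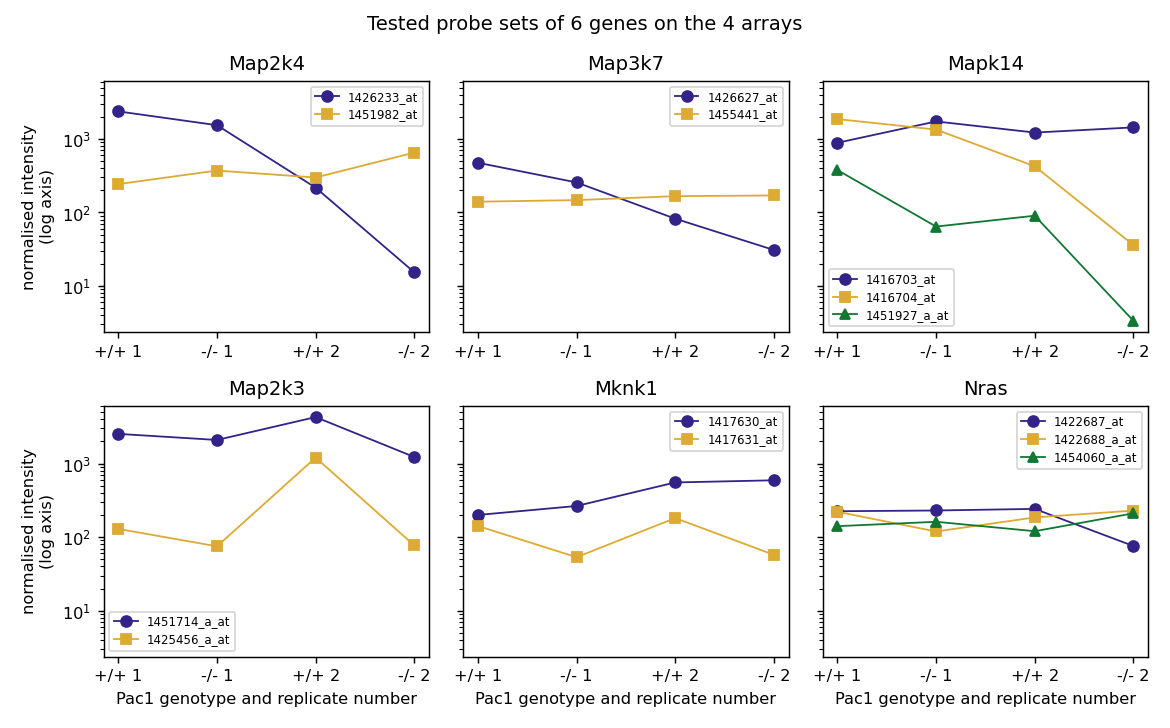
Quantile-normalised intensity (log axis) of the tested probe sets of 6 genes, with the 4 arrays along the x axis as Pac1 genotype and replicate number. Each line is 1 probe set. In Map2k4, Map3k7 and Mapk14 a probe set that falls from the replicate 1 to the replicate 2 arrays, lowest on Pac1-/- replicate 2, stands beside another without such a drop. In Mapk14 that other set, 1416703_at, went from 886 to 1220 in wild-type and from 1730 to 1435 in Pac1-/- cells.

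The p38 arm had 2 bright genes of 7, Map2k3 and Mapk14. Of the 4 p38 genes, only Mapk14 (p38alpha) was bright. Mapk11 (p38beta), Mapk12 (p38gamma) and Mapk13 (p38delta) had 4 probe sets with no deposited intensity above 31.3. Of the p38 activators, Map2k3 (MKK3) was bright and Map2k6 (MKK6) lay between 5.5 and 22.2. Mapkapk2 (MK2), the p38 substrate that controls cytokine mRNA stability, was above 100 on 3 arrays and at 19.5 on Pac1-/- replicate 2.

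Mapk14 and Mapk13 lie on chromosome 17, and only Mapk14 was bright. Their RefSeq promoter windows (GRCm38.p6, plus strand, 250 bases before to 50 after the start) are shown for that contrast, with matches to the GC box GGGCGG on either strand in capitals. Mapk14 has a second annotated start, at chr17:28692318-28692617, with 0 such matches.
Mapk14 chr17:28691092-28691391: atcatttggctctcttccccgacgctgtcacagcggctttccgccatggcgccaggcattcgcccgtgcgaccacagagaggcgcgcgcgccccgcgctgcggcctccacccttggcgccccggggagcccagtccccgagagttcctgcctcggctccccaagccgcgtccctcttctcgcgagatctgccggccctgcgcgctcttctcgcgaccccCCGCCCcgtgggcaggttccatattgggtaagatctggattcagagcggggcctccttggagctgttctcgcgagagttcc
Mapk13 chr17:28769067-28769366: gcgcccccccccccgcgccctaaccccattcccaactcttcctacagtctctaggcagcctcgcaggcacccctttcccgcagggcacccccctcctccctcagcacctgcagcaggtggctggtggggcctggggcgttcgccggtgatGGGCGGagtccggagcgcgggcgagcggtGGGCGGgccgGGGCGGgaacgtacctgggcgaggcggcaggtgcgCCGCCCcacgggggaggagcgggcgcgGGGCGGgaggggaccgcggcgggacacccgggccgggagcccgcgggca
The Mapk14 window holds 1 match and 33 CpG dinucleotides, and the Mapk13 window 5 matches and 34 CpG dinucleotides. The windows of Mapk11 and Mapk12, also dim on these arrays, hold 4 matches and 1 match. A relation between GC boxes and brightness was not tested. Over 44 windows of 32 of the measured genes, 65.9% held a GC box, against 55.4% of the 12566 windows of all genes on the array. The AP-1 motif TGANTCA was in 6.82% against 6.45% and the CRE motif TGACGTCA in 2.27% against 2.51%, both searched on either strand. A match of letters is not a bound site.

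Mapk14 had 3 tested probe sets. The brightest, 1416703_at, read 886 and 1220 in wild-type replicates 1 and 2 and 1730 and 1435 in Pac1-/- replicates 1 and 2. Both Pac1-/- arrays were above both wild-type arrays, and the log2 difference was 0.60 ± 0.39 (SE, n = 2 per genotype; 95% interval -0.53 to 1.72). The other sets gave the opposite sign. The set 1416704_at read 1860 and 425 in wild-type and 1340 and 36.1 in Pac1-/- cells (-2.01 ± 2.10). The set 1451927_a_at read 377 and 90.4 in wild-type and 64.3 and 3.4 in Pac1-/- cells (-2.52 ± 1.11, with the last array raised to the floor). Its genotypes did not overlap either, in the opposite direction to 1416703_at. On both, Pac1-/- replicate 2 was the lowest array and wild-type replicate 1 the highest. Averaging the 3 sets gave -1.31, so the direction for Mapk14 depends on the probe set.

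Map2k3 read 2533 and 4285 in wild-type replicates 1 and 2 and 2093 and 1229 in Pac1-/- replicates 1 and 2, through 1451714_a_at. Both Pac1-/- arrays were below both wild-type arrays, with log2 differences of -0.28 in the replicate 1 pair and -1.80 in the replicate 2 pair. The difference was -1.04 ± 0.52 (SE, n = 2 per genotype; limma adjusted p = 0.866), and it was -0.67 without Pac1-/- replicate 2 and -0.66 without wild-type replicate 2. The second set, 1425456_a_at, read 129 and 1206 in wild-type and 75 and 77.1 in Pac1-/- cells (-2.38 ± 1.23). It had the same sign, and its size came from the wild-type replicate 2 array.

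Mapkapk2 read 257 and 384 in wild-type cells and 241 and 32.9 in Pac1-/- cells. The genotypes did not overlap, but the replicate 1 arrays differed by only -0.09 log2 units and the replicate 2 arrays by -3.54. The difference of -1.82 ± 1.13 (SE, n = 2 per genotype) became -0.36 without Pac1-/- replicate 2. It rests on the array whose 5' GAPDH control was at 17.7, and the part of that in the result was not tested.

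Mknk1 and Mknk2 encode kinases that both ERK and p38 activate and that phosphorylate the translation factor eIF4E. Both genes were bright. Mknk1 at 1417630_at read 200 and 554 in wild-type and 265 and 593 in Pac1-/- cells, and followed the replicate number (0.25 ± 0.77, SE, n = 2 per genotype). Its other tested set, 1417631_at, read 142 and 182 in wild-type and 53.3 and 57.5 in Pac1-/- cells. There the Pac1-/- arrays were the lower ones in both pairs, by -1.41 and -1.66, with a fitted difference of -1.54 ± 0.37 (limma unadjusted p = 0.016, adjusted p = 0.866). That set reached the mean of 100 only through the wild-type arrays. Mknk2 read 693 and 568 in wild-type and 1890 and 748 in Pac1-/- cells, without overlap, and its difference of 0.92 ± 0.61 came mainly from Pac1-/- replicate 1.

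The comparison of Pac1-/- with wild-type cells called 0 of these genes. Of the 35 measured genes, 21 had a mean normalised intensity of at least 100 and were tested with limma over 7770 probe sets of 4998 genes. After Benjamini-Hochberg adjustment 0 of the 21 were under 0.05, against a background of 0% of the 4998 genes, and their adjusted p lay between 0.866 and 0.992. At an unadjusted limma p under 0.05 there was 1 of 21 (4.76%), Map3k3, against a background of 2.9%, and nothing is read from this count since that gene entered the test only through its Pac1-/- arrays. By probe set there were 2 of 31, Map3k3 and the second set of Mknk1, and 263 of 7770 in all, of which 66.5% were higher in Pac1-/- cells, against 54.2% of those called on the values as deposited and 47.4% with arrays centred on their median. Map3k3, Map3k12 and Mapkapk5 reached the minimum for the test only through their Pac1-/- arrays, their wild-type means being below 100, so the brightness filter was not independent of their difference. The 14 measured genes left out were dimmer and had no test, and the values given for Braf and Map3k11 are a description.

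Among the 21 tested genes 11 were higher and 10 lower in Pac1-/- cells, or 52.4% higher against a background of 56.1%. Their median log2 difference was 0.06, against 0.11 over all tested genes, and it was -0.07 on the values as deposited. By arm, 3 of 8 tested ERK1/2 genes were higher, 3 of 4 in the JNK arm and 1 of 3 in the p38 arm. The arms are not compared by these counts. Map3k12 of the JNK arm entered the test only through its Pac1-/- arrays, and the signs of Nras, Map2k4 and Mapk14 depend on the probe set. The 95% intervals had a median half-width of 1.48 log2 units, and at the narrowest 1.01. Differences of less than about 2-fold were therefore within the error of this fit for each of these genes. The fit has no term for the replicate number, although the deviations of same-numbered arrays correlated at 0.75 across tested probe sets. Intervals with the replicate block are not given here.

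**Figure D3:**
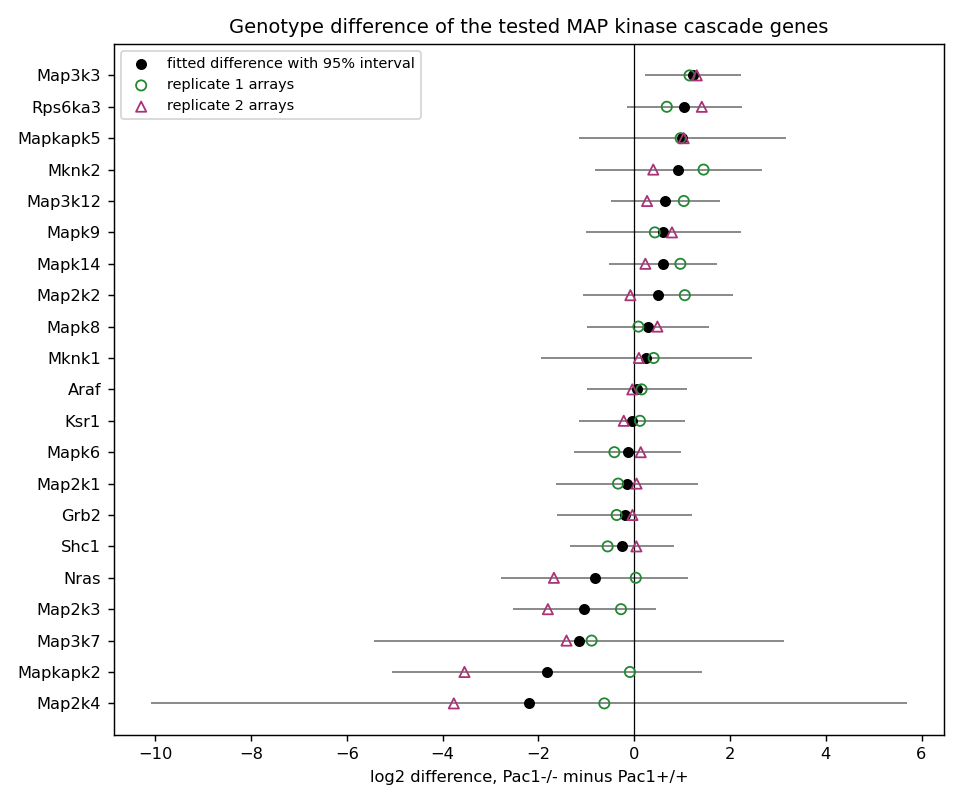
Log2 difference, Pac1-/- minus Pac1+/+, of the 21 tested genes, each through its brightest tested probe set. Black points with grey bars are the limma estimate with its 95% interval (n = 2 per genotype), green circles the difference within replicate 1 and purple triangles that within replicate 2. The Map3k3 interval alone lies to 1 side of 0, and the intervals of Map2k4 and Map3k7 are the widest.

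In 7 of the 21 genes (33.3%) the genotypes did not overlap, against a background of 37.6%. These were Map3k3, Rps6ka3, Mknk2, Map3k12 and Mapk14, higher in Pac1-/- cells, and Map2k3 and Mapkapk2, lower. For Mapk14 this holds of its brightest set, and 1451927_a_at was lower without overlap. In 4 of them (19%), Map3k3, Rps6ka3, Map2k3 and Mapkapk2, the log2 difference was also at least 1 in size, against a background of 9.76%. Nothing is read from these 2 shares. Map3k3 and Map3k12 entered the test only through their Pac1-/- arrays, and the Mapkapk2 difference rests on Pac1-/- replicate 2. Of 8 genes with more than 1 tested probe set, 3 (37.5%) had the same sign in all of them, namely Grb2, Rps6ka3 and Map2k3, against 43% of 1468 such genes in the table.

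The genes were also described by replicate number. In 11 of the 21 (52.4%) the replicate 2 arrays were both above or both below the 2 replicate 1 arrays, against a background of 40.7%. Nothing is read from this share either. The median size of the difference between replicates was 0.49 log2 units in wild-type and 0.77 in Pac1-/- cells. Over all tested genes it was 0.52 and 0.60. The median size of the fitted difference between the genotypes was 0.61, against 0.46 over all tested genes. The fitted difference is between means of 2 arrays and the others between single arrays, so the 2 kinds are not on one scale. Mapkapk5 and Mknk1 were more than 2-fold higher on replicate 2 in both genotypes. Map2k4 was lower there, at -3.44 log2 units in wild-type cells and, in Pac1-/- cells, from 1537 to a value under the floor of 16. Map3k7 was lower there as well, at -2.53 in wild-type and -3.05 in Pac1-/- cells. In Pac1-/- cells Nras, Mapkapk2 and Mknk2 were also lower on replicate 2, at -1.60, -2.87 and -1.34, against 0.11, 0.58 and -0.29 in wild-type cells, and this difference between the genotypes was not tested.

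**Figure D4:**
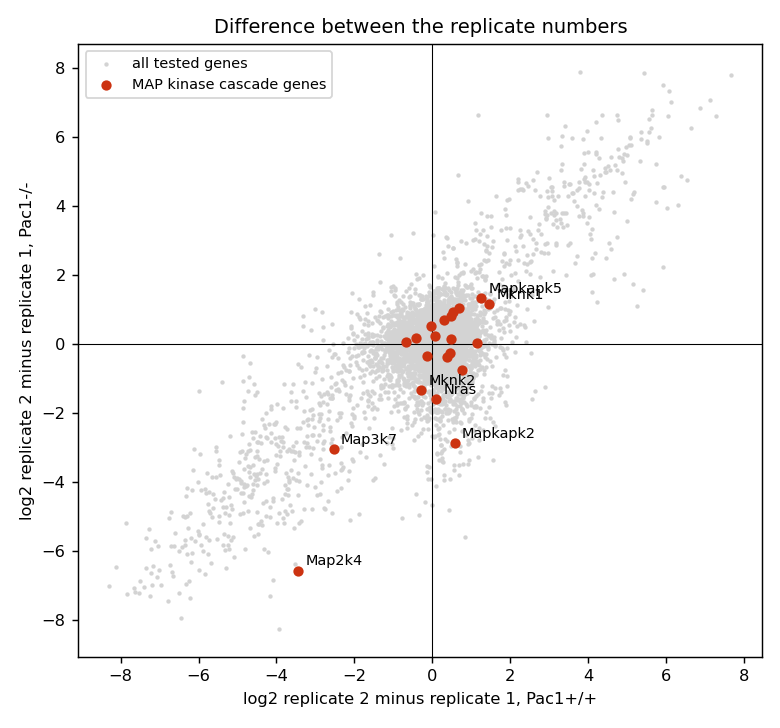
Log2 difference between replicate 2 and replicate 1 in Pac1+/+ cells (x axis) and Pac1-/- cells (y axis), for the 4998 tested genes in grey and the 21 tested MAP kinase cascade genes in red. Map2k4 and Map3k7 lie low on both axes, and Mapkapk2 low on the Pac1-/- axis.

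The other genes of the pathway were described from a list of 79 upstream kinases, Ras proteins, scaffolds and transcription factor substrates, of which 54 had a probe set and 32 were bright enough to test. By limma 0 passed the adjusted and 0 the unadjusted 0.05. Of the 32, 27 (84.4%) had a higher value in Pac1-/- cells and 5 a lower one, against 56.1% higher among all tested genes. Their median log2 difference was 0.34, against 0.11 for all tested genes. In 17 of them (53.1%) the genotypes did not overlap, 16 higher and 1 lower, against a background of 37.6% in either direction. Etv3 and Mink1, both higher without overlap, had wild-type means below 100 and reached the minimum for the test only through their Pac1-/- arrays. The filter was thus not independent of these shares, and nothing is read from them. The share with a higher value was 71.9% on the values as deposited and 65.6% with the probe sets of a gene averaged. The medians there were 0.38 and 0.27, against 0.10 and 0.04 for all tested genes.

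Of these the lowest p among higher values belonged to Tab3, a TAK1-binding adaptor gene, which read 121 and 86.3 in wild-type and 194 and 207 in Pac1-/- cells (0.98 ± 0.39, SE, n = 2 per genotype). Atf2, whose product is a transcription factor phosphorylated by JNK and p38, read 244 and 195 against 403 and 369 through its brightest set (0.82 ± 0.36). Its other 3 tested sets gave 1.23 ± 0.53, -0.01 ± 0.34 and -0.83 ± 0.41, the last without overlap in the lower direction, and their average with it was 0.30. Arrb2, a beta-arrestin gene, read 189 and 206 against 307 and 382 (0.80 ± 0.36), but -0.52 through another probe set that is not of the shared types. Through the brightest set of these 3 genes both Pac1-/- arrays were above both wild-type arrays. The gene with lower values and no overlap was Lamtor2, a gene of the endosomal scaffold for MEK1 and ERK. It read 472 and 478 in wild-type and 436 and 362 in Pac1-/- cells (-0.26 ± 0.35). Lamtor3, of the same scaffold, went the other way without overlap, at 1882 and 1032 against 2604 and 2309 (0.82 ± 0.47).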

How the data were processed

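RNA of 2 Pac1+/+ and 2 Pac1-/- cultures was amplified from 500 to 1000 ng by a method for small samples and hybridised to 1 array per culture, per the labels' protocols. The deposited values are linear intensities, 1 per probe set; the submitters' processing notes name MAS5, and the values are scaled to trimmed means of 150.1 on every array. The series' design text describes RMA, eBayes of Limma 1.3.12 and a minimum of 100; RMA values were not used here.

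Of 22690 probe sets 64 are controls and were not used. In the platform annotation 20380 have 1 symbol, 691 several and 1555 none. Intensities were quantile normalised, raised to a floor of 16 and taken to log2, so folds of dim genes depend on that floor. The 7770 probe sets with a mean of at least 100 were tested with limma 3.58.1 in R 4.3.3 (two-sided moderated test of genotype, no other covariate, Benjamini-Hochberg adjusted over the tested probe sets, threshold 0.05), a fit with 2 residual and 1.7 prior degrees of freedom. With 2 arrays per genotype the lowest p of an exact permutation test is 0.3333, so none was used. The design text calls the cultures independent; the p-values measure the spread between 2 arrays per genotype.

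The members and lists were chosen with earlier results of these data known. Genes are named by arm and tier, with values on all arrays for bright genes, genes past 0.05, and tested genes without overlap and a log2 difference of at least 1; of the other pathway genes, up to 3 per direction with the lowest p and no overlap. Secondary probe sets and the other genes of an arm were added after their values were seen. Alternatives were the deposited values, median centring, other minimums, a floor of 64, an intensity trend, a replicate block, omission of 1 array at a time, averaged probe sets, and omission of _x, _s and _a probe sets, which may match several transcripts. Promoter windows on chromosome 18 were not used. Figures were drawn with matplotlib 3.10.9 in Python 3.11.15.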

Additional observations from a re-analysis of the deposited data

How the results depend on the processing

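The counts of 0 adjusted limma calls, over all probe sets and over the MAP kinase cascade genes, were the same under each alternative run. At the unadjusted 0.05 the 263 probe sets became 1762 with no minimum intensity, 110 with a minimum of 200, 899 with the replicate block and 87 to 380 with an array left out. The 1 gene of the cascade at that level became 0 on the deposited values, with median centring, with a minimum of 200 and with an intensity trend, 3 with no minimum (Map3k3, Braf and Map3k2) and 3 with the replicate block (Map3k3, Map2k4 and Map3k7), and 0 to 2 with an array left out. The labels do not pair the replicate numbers; the deviations of same-numbered arrays correlated at 0.75 across tested probe sets. The median difference of the cascade genes, 0.06, was -0.07 on the deposited values and with median centring (-0.0653 and -0.0659), 0 with no minimum, -0.14 with a minimum of 200, -0.14 with probe sets averaged, 0.25 without the shared probe set types, and -0.072 to 0.24 with an array left out. The 15 bright genes became 9 at a minimum of 200, and 11 to 21 under the other alternatives.

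With all 4 arrays kept, the sign turned for 3 of the 21 genes: Araf (-0.11 on the deposited values and -0.11 with median centring), and with probe sets averaged Mapk14 (-1.31) and Mknk1 (-0.64). Arrb2 turned to -0.52 without the shared probe set types. With an array left out the ranges that crossed 0 were -0.11 to 0.21 for Araf, -0.58 to 0.21 for Grb2, -0.30 to 0.19 for Ksr1, -0.57 to 0.33 for Map2k1, -0.10 to 1.10 for Map2k2, -5.48 to 1.04 for Map2k4, -2.64 to 0.35 for Map3k7, -0.38 to 0.13 for Mapk6, -0.061 to 0.65 for Mapk8 and -0.49 to 1.01 for Mknk1. In 10 of the 21 genes the sign was the same under each alternative that gave a value. Fits with an array left out take the spread from the genotype that keeps 2 arrays. With 2 arrays a genotype, signal near the floor on Pac1-/- replicate 2 limits what can be said of genes dim there.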
